A study of Drosophila melanogaster with 6 samples.

Results

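The ion channel genes ppk, ppk26, pain and Piezo, known from nociceptive and mechanosensory neurons, were examined in a differential RNA-seq analysis of Drosophila melanogaster wings. They were chosen by symbol, and each of the 4 symbols was carried by 1 FlyBase identifier among the 17476 genes counted in every library. All 4 had enough counts to enter the test, which covered 8973 genes. The tested genotype was Poxn 70, a mutation of the Pax transcription factor gene Poxn whose wings have no chemosensory sensilla, and the control genotype was w1118 Canton-S. The methods describe backcrossing of all lines to the control stock, so that both genotypes share its background. Wings were dissected by hand at 3 days after eclosion, from pooled flies whose sex is not given, and 3 libraries of polyadenylated RNA were made for each of the 2 genotypes. The sources do not agree on the number of wings in a library. Nothing links the replicates of one genotype to those of the other, and p-values measure the spread between these pools.

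As background, ppk and ppk26 encode pickpocket subunits of the degenerin and epithelial sodium channel family. In the larva both are found in the class IV multidendritic neurons that tile the body wall, and both are needed there for the response to harsh mechanical stimuli. The gene pain, or painless, encodes a TRPA channel needed for the avoidance of noxious heat and of strong mechanical stimuli. Piezo encodes a very large channel that opens when the membrane is stretched, and in larval nociceptors it acts beside the pickpocket channel rather than with it. The comparison asks whether transcripts of such channels differ between wings in which chemosensory sensilla are missing, and may have become mechanosensory, and wings that carry them.

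The 4 genes lie apart from each other in the genome (coordinates of the BDGP6.54 assembly). The gene ppk (FBgn0020258) is on the reverse strand of 2L, from 14378218 to 14381172, with 7 exons and 1 annotated transcript of 2462 nt. The gene ppk26 (FBgn0035785) is on the forward strand of 3L, from 7456149 to 7458608, with 6 exons and 1 transcript of 2089 nt. The gene pain (FBgn0060296) is on the reverse strand of 2R, from 24921505 to 24928275, and its longest transcript has 3041 nt. Piezo (FBgn0264953) is on the forward strand of 2L, from 8163073 to 8190137, with 11 transcripts, the longest of 10506 nt. No exon of ppk, ppk26 or Piezo overlaps an exon of another gene in the annotation. Of the exonic bases of pain, 173 (5.69%) are shared with exons of NaCP60E, a voltage-gated sodium channel gene on the opposite strand. It is not stated whether the counting used strand, so a small part of the pain counts is uncertain.

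The libraries labelled Poxn held from 14021115 to 16182811 counts on genes, and those labelled control from 10074860 to 14269486. The 50 most abundant genes took from 30.9% to 32.3% of the counts in the libraries labelled Poxn and from 37.7% to 62.4% in those labelled control. Levels below are therefore CPM, counts per 1000000 of an effective library size corrected with edgeR's TMM factors, and the effective size was smallest in control replicate 1 (3183500 counts). Transcripts of the Poxn gene itself were more numerous in the libraries labelled Poxn, with 92, 86 and 85 counts, than in those labelled control, with 0, 6 and 3. This level does not check the labels, so each direction given here follows the labels. In the same libraries ppk23, a subunit of a pheromone-sensing channel, had 1, 0 and 0 counts under the label Poxn and 272, 195 and 890 under the label control.

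The pickpocket gene ppk26 showed the largest difference of the 4. It had 1328, 2372 and 1849 counts in Poxn replicates 1 to 3, against 19, 18 and 168 counts in control replicates 1 to 3. On the scale of CPM it stood at 47.8, 78.8 and 70.8 in the libraries labelled Poxn and at 5.97, 3.42 and 9.21 in those labelled control. Every library labelled Poxn lay above every one labelled control. The means were 65.8 ± 16.1 CPM and 6.20 ± 2.90 CPM (SD, n = 3 each). The log2 fold change of Poxn over control was 3.38 with a standard error of 0.46, a 10.4-fold higher level in the libraries labelled Poxn with a 95% interval from 5.04-fold to 21.5-fold. It passed the criterion of a change beyond 4-fold with adjusted p below 0.01 (adjusted p = 0.00954, edgeR's quasi-likelihood test with Benjamini-Hochberg adjustment over all tested genes). The criterion was met by 5 of all tested genes (0.0557%) in the direction of Poxn and by 54 (0.602%) in the direction of control. In whole wings, more cells that express a channel and more transcript in each such cell cannot be told apart.

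Its partner ppk was measured at lower counts but moved in the same direction. It had 525, 777 and 645 counts in Poxn replicates 1 to 3 and 4, 24 and 59 in control replicates 1 to 3. The 4 counts of control replicate 1 have an exact 95% Poisson interval from 1.09 to 10.2 counts, which covers counting error only. The levels of ppk were 18.9, 25.8 and 24.7 CPM in the libraries labelled Poxn, against 1.26, 4.56 and 3.23 CPM in those labelled control, again without overlap. The means were 23.1 ± 3.71 CPM and 3.02 ± 1.66 CPM (SD, n = 3 each). The log2 fold change was 2.89 (standard error 0.45), or 7.41-fold with a 95% interval from 3.62-fold to 15.2-fold. With an adjusted p of 0.0189 (edgeR), ppk was past 4-fold but did not reach the adjusted p that the criterion asks for. Without control replicate 2 it did (log2 fold change 3.19, adjusted p = 0.00833, edgeR), as it did with DESeq2, the tool used in the study (2.82, adjusted p = 2.96e-07), which called 0.759% of the genes it tested in this direction. A change beyond 4-fold toward Poxn, with no regard to p, was seen in 1.84% of tested genes. Over all its alternatives the adjusted p of ppk ran from 2.96e-07 to 0.112.

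The TRPA channel gene pain changed less. It had 1391, 2167 and 1471 counts in Poxn replicates 1 to 3, against 58, 146 and 367 in control replicates 1 to 3. Its levels were 50.1, 72.0 and 56.3 CPM in the libraries labelled Poxn and 18.2, 27.8 and 20.1 CPM in those labelled control. The groups did not overlap, and the means were 59.5 ± 11.3 CPM and 22.0 ± 5.05 CPM (SD, n = 3 each). The log2 fold change was 1.43 (standard error 0.34), or 2.70-fold with a 95% interval from 1.58-fold to 4.59-fold, and the adjusted p was 0.0414 (edgeR). At an adjusted p under 0.05 without a fold threshold, the test called ppk, ppk26 and pain higher in the libraries labelled Poxn, as it did 241 of all tested genes (2.69%). The call of pain was lost on leaving out any 1 of the libraries labelled Poxn (adjusted p = 0.161, 0.217 and 0.176 without replicates 1 to 3, edgeR) or control replicate 1 (adjusted p = 0.0663, edgeR). That of ppk was lost without any 1 of the libraries labelled Poxn (adjusted p = 0.0852, 0.112 and 0.0935, edgeR). In these fits calls over all genes fell as well, as given below. NaCP60E, which shares exonic bases with pain, had 453, 530 and 417 counts against 60, 225 and 198, and its level did not differ detectably between the labels (log2 fold change −0.53, adjusted p = 0.486, edgeR).

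No difference was detected for Piezo. Its counts were 112, 135 and 153 in Poxn replicates 1 to 3 and 13, 39 and 83 in control replicates 1 to 3. In CPM it stood at 4.03, 4.49 and 5.86 in the libraries labelled Poxn, against 4.08, 7.42 and 4.55 in those labelled control, and the groups overlapped. The means were 4.79 ± 0.951 CPM and 5.35 ± 1.80 CPM (SD, n = 3 each). The log2 fold change was −0.16 with a standard error of 0.40 (adjusted p = 0.813, edgeR) and a 95% interval from −1.07 to 0.75. A change larger than 1.68-fold upward or below 0.477 of the control level lies outside that interval. Scaled by total counts alone, Piezo too was higher in each library labelled Poxn than in any labelled control, with a log2 fold change of 1.30 (adjusted p = 0.320, edgeR). That scaling moved the median log2 fold change of all tested genes to 1.39, against 0.0072 with TMM factors, so that Piezo stood at about the median of all genes under each.

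**Figure D1:**
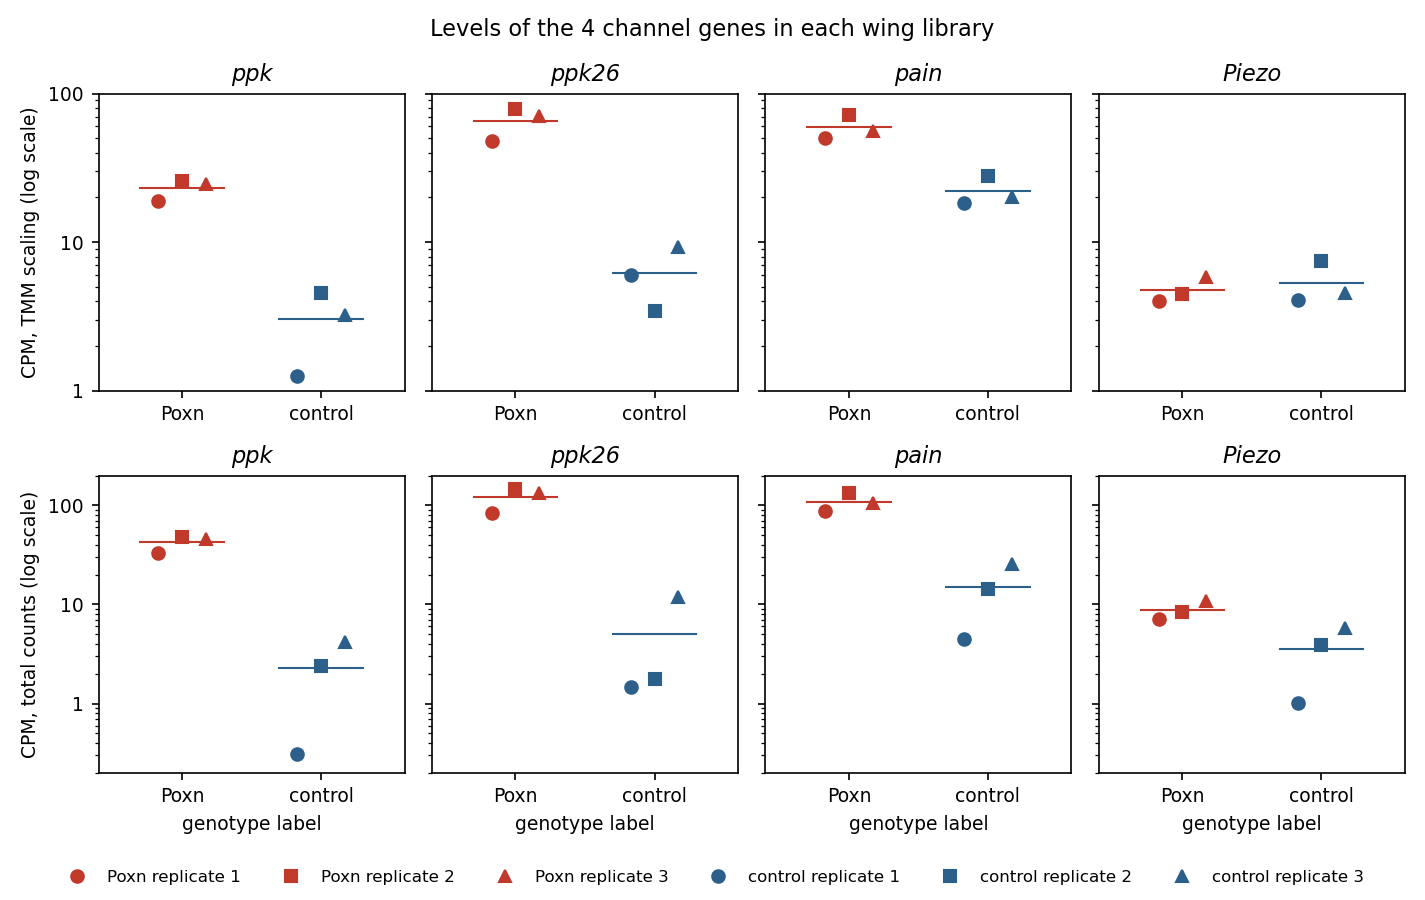
Level of each channel gene in each of the 6 libraries, in CPM on log axes, with TMM factors (upper row) or total counts (lower row). Symbols mark the replicate and lines the mean of 3 libraries. In ppk, ppk26 and pain the libraries labelled Poxn lie above those labelled control under both scalings, and Piezo overlaps with TMM factors only.

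The libraries of 1 label lay wholly above those of the other often in these data. At an unadjusted p under 0.05, 14.1% of tested genes were higher under the label Poxn and 17.8% under the label control (edgeR). With TMM factors, 22.5% of all tested genes had every library labelled Poxn above every one labelled control, and with total counts 57.8% did. Non-overlap of ppk, ppk26 and pain is to be read against these shares. For 3 libraries against 3, an exact two-sided permutation test of a single gene gave the smallest p it allows, 0.1, for each of the 3. By size of change, 0.423% of tested genes had a larger log2 fold change than ppk26 and 0.658% a larger one than ppk, while 6.02% exceeded pain and 56.2% exceeded Piezo. The spread between replicates was also unequal. The coefficient of variation of CPM was between 16.0% and 24.5% for the 4 genes in the libraries labelled Poxn and between 22.9% (pain) and 55.1% (ppk) in those labelled control.

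Levels of different genes were compared per kilobase of the longest transcript. In the wings labelled Poxn the order was ppk26 with 31.5 ± 7.70, pain with 19.6 ± 3.71, ppk with 9.40 ± 1.51 and Piezo with 0.456 ± 0.0905 CPM per kb (SD, n = 3). This order held within each of the 3 libraries. In control wings pain came first with 7.24 ± 1.66 CPM per kb, followed by ppk26 with 2.97 ± 1.39, ppk with 1.23 ± 0.676 and Piezo with 0.509 ± 0.172 CPM per kb. The neighbours ppk26 and ppk were not separated in control wings, since ppk was the higher of them in control replicate 2. The gene pain led in all 3 control libraries and ppk26 led in all 3 libraries labelled Poxn.

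A ratio between genes of the same library does not depend on how libraries are scaled. The ratio of ppk26 to pain, per kilobase, was 1.39, 1.59 and 1.83 in Poxn replicates 1 to 3 and 0.477, 0.179 and 0.666 in control replicates 1 to 3. The ratio of ppk to pain was 0.466, 0.443 and 0.542 in the libraries labelled Poxn, against 0.0852, 0.203 and 0.199 in those labelled control. Relative to pain, both pickpocket genes were thus higher under the label Poxn in every library. The ratio of pain to Piezo was 42.9, 55.5 and 33.2 against 15.4, 12.9 and 15.3, a log2 difference of 1.57. This ratio carries the trend of change with transcript length described below, which at the lengths of these genes was 0.58 for pain and −0.43 for Piezo. With length offsets their log2 fold changes were 0.87 and 0.29. The trend was 0.62 for ppk and 0.55 for ppk26, so that their ratios to Piezo carry it as well. The ratio of ppk to ppk26 was 0.335, 0.278 and 0.296 in the libraries labelled Poxn and 0.179, 1.13 and 0.298 in those labelled control, and the groups overlapped. The ratios share genes and are therefore not independent of each other. The share of other gene pairs whose ratio separates the labels was not computed. Of the 6 ratios, 5 separated the labels. Each of these had an exact two-sided permutation p of 0.1, the smallest possible, and an adjusted p of 0.12 over the 6 ratios, while ppk to ppk26 had p = 0.8.

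**Figure D2:**
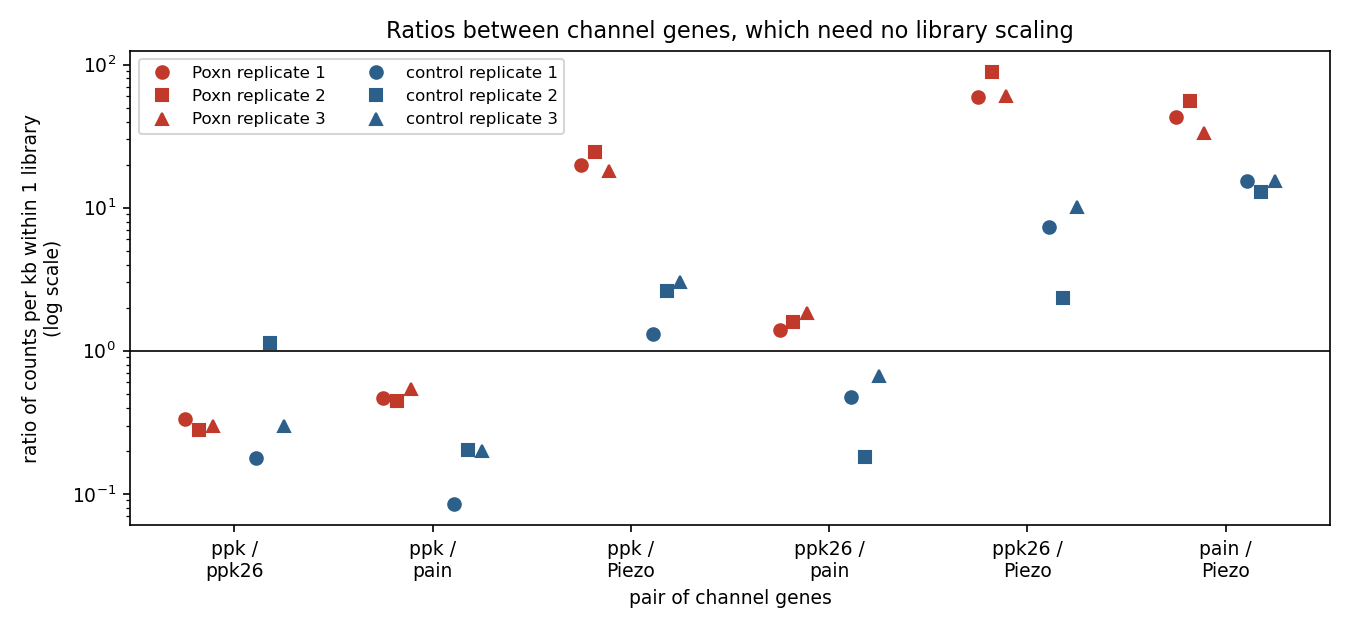
Ratio of counts per kilobase between each pair of channel genes within 1 library, on a log axis, with 3 libraries for each label. The line marks a ratio of 1. The ratio of ppk26 to pain is above 1 in all 3 libraries labelled Poxn and below 1 in all 3 labelled control, and only the ratio of ppk to ppk26 overlaps.

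Changes in these libraries moved with transcript length. Tested genes were divided into 4 equal groups by transcript length. The median log2 fold change was −0.86 in the shortest (72 to 1272 nt) and 0.59 among those of 2054 to 3429 nt, where 73.1% of genes were higher under the label Poxn. The transcripts of ppk, ppk26 and pain all fall in this range, and Piezo falls in the group of the longest transcripts, with a median of 0.04. When the trend with length was removed by an offset for each gene and library, the log2 fold change of ppk26 became 2.86 (adjusted p = 0.0161), that of ppk 2.32 (adjusted p = 0.0252), that of pain 0.87 (adjusted p = 0.117) and that of Piezo 0.29 (adjusted p = 0.646, all edgeR). With these offsets ppk26 and ppk remained more than 4-fold higher in the libraries labelled Poxn but neither met the criterion, which 6 of all tested genes (0.0669%) did in this direction. At an adjusted p under 0.05, 57 genes (0.635%) were higher under the label Poxn with offsets, among them ppk and ppk26 but not pain. The 95% interval of pain with offsets ran from 0.24 to 1.50 on the log2 scale.

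**Figure D3:**
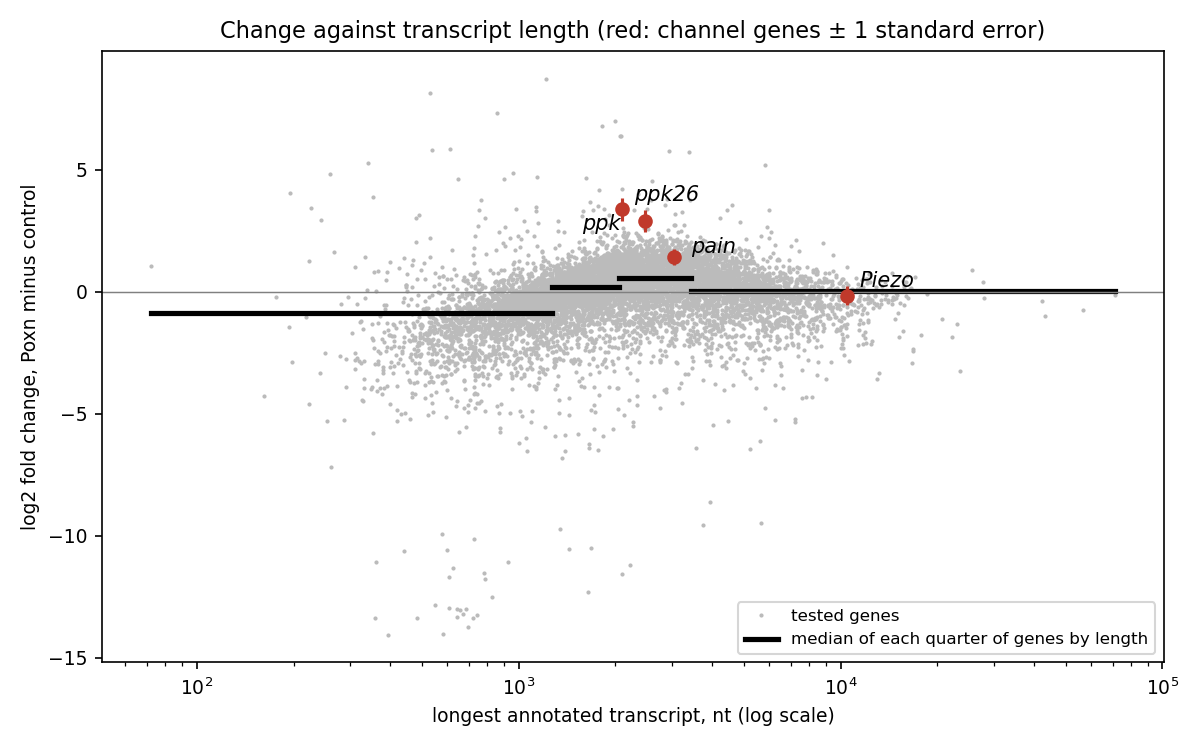
Log2 fold change of Poxn over control against the longest annotated transcript (nt, log axis) for all tested genes with a length (grey) and for the 4 channel genes (red, ± 1 standard error). Black lines are the medians of 4 equal groups of genes by length, −0.86 for the shortest and 0.59 for 2054 to 3429 nt. The genes ppk26 and ppk lie well above the median of genes of their length, and Piezo lies close to it.

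Whether ppk26 met the criterion depended on the libraries kept, but its direction did not. Its call was lost on leaving out any of the 3 libraries labelled Poxn or control replicate 1 (adjusted p between 0.0382 and 0.0549, edgeR). Its log2 fold change stayed between 3.08 and 3.79 in all 6 fits. Calls over all genes fell as well. With all libraries 5 genes met the criterion toward Poxn and 54 toward control. Without Poxn replicates 1 to 3 these numbers were 0, 1 and 1 toward Poxn and 3, 7 and 7 toward control. Without control replicate 1 they were 2 and 42. On leaving out 1 library, the log2 fold change ran from 2.60 to 3.19 for ppk and from 1.28 to 1.64 for pain. With TMM factors, ppk26 was lowest and ppk, pain and Piezo were highest in control replicate 2 among the control libraries. With total counts, control replicate 3 was highest in ppk, pain and Piezo, and control replicate 1 was lowest in ppk26. Control replicate 2 was nearly without transcripts of the tracheal and cuticle gene Gasp, with 32 counts against 2566 and 32647 in the other control libraries. Without control replicate 2 the log2 fold change was 3.08 for ppk26, 3.19 for ppk, 1.64 for pain and 0.15 for Piezo. Poxn replicate 2, highest in ppk26, ppk and pain, had 2583 counts of the flight muscle actin gene Act88F, against 237 and 105 in Poxn replicates 1 and 3 and 19, 5 and 379 in the control libraries. Other flight muscle genes were uneven in Poxn replicates 1 to 3. TpnC4 had 4, 224 and 27 counts, but Mhc had 1003, 1313 and 697 and up had 511, 670 and 443. Without Poxn replicate 2 the log2 fold changes of ppk26, ppk and pain were 3.25, 2.82 and 1.28. Transcripts of neurons were present throughout. The pan-neuronal gene elav stood at 13.2, 10.8 and 12.4 CPM in the libraries labelled Poxn and at 15.7, 16.9 and 14.5 CPM in those labelled control (all 3 control values the higher, log2 fold change −0.37, adjusted p = 0.418, edgeR).

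**Figure D4:**
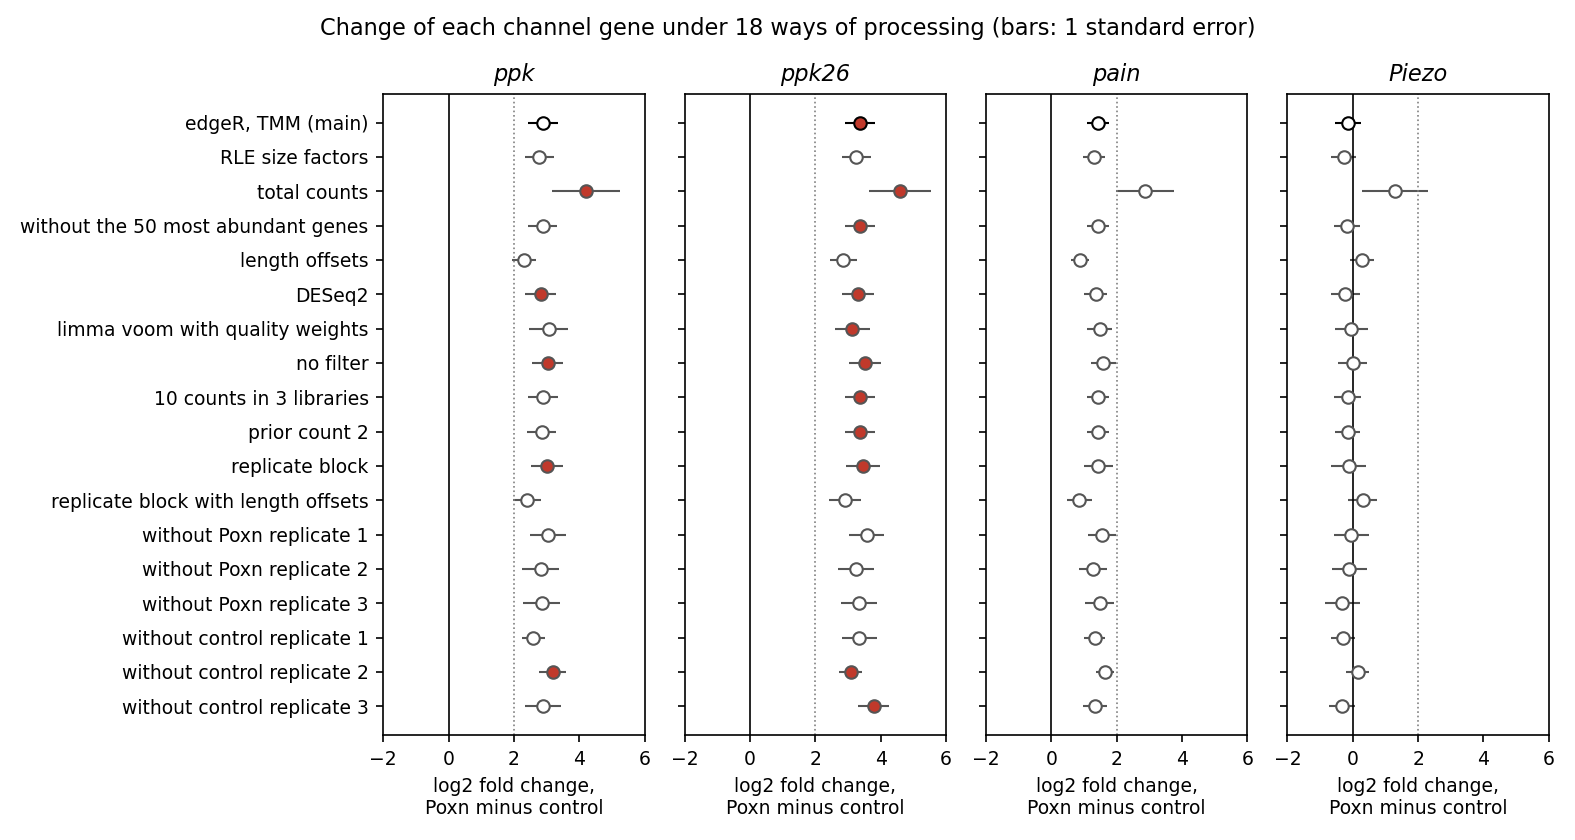
Log2 fold change of Poxn over control (± 1 standard error) for each channel gene in the edgeR test and in 17 alternatives. Filled points passed 4-fold (dotted line) with adjusted p below 0.01. All points of ppk, ppk26 and pain are above 0, and those of Piezo lie on both sides of it.

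Relative to all transcripts of 10 pan-neuronal genes in the same library, a measure that also needs no library scaling, ppk26 had 57.1, 96.3 and 95.1 counts per 1000 in Poxn replicates 1 to 3, against 3.15, 6.78 and 11.7 in control replicates 1 to 3. For ppk the values were 22.6, 31.6 and 33.2 against 0.662, 9.04 and 4.10. For pain they were 59.8, 88.0 and 75.7 against 9.61, 55.0 and 25.5, and again no library labelled control reached one labelled Poxn. The share of all genes that do so on this measure was not computed. It was 22.5% with TMM factors and 57.8% with total counts. Piezo overlapped, with 4.82, 5.48 and 7.87 against 2.15, 14.7 and 5.77. Syntaxin 1A (Syx1A), a membrane fusion protein gene not restricted to neurons, made up between 41.7% and 66.3% of this sum in each library. For the first 3 genes the exact permutation p was 0.1, the smallest possible, and for Piezo it was 1.

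Other channels of touch, hearing, heat and cold were compared by a list of 12 genes, of which 7 were tested. None passed the criterion, and at an adjusted p under 0.05 1 was higher in the libraries labelled Poxn and 0 were lower (3 higher and 1 lower at an unadjusted p under 0.05, edgeR). Over all tested genes the shares were 2.69% and 4.95% at the adjusted and 14.1% and 17.8% at the unadjusted threshold, and the counts of each list below are to be read against these. The median log2 fold change of the 7 was 0.38. The one that rose was Tmem63, which encodes an osmosensitive and mechanosensitive channel, at 37.5 ± 6.24 CPM in the libraries labelled Poxn and 11.1 ± 3.49 CPM in those labelled control (SD, n = 3 each). Its log2 fold change was 1.75 (adjusted p = 0.0333, edgeR). With length offsets its adjusted p was 0.129. The TRP channel gene pyx, needed for avoidance of heat, had 895, 707 and 793 counts in Poxn replicates 1 to 3, against 613, 317 and 1308 in control replicates 1 to 3. At 28.7 ± 4.60 against 108 ± 73.3 CPM its log2 fold change was −1.91 (adjusted p = 0.0530, edgeR). With DESeq2 it met the criterion as lower (−2.01, adjusted p = 0.00334), as did 734 of the 9751 genes that DESeq2 tested. With total counts the labels overlapped and the log2 fold change of pyx was −0.12. The gene stum, needed in proprioceptive neurons, had 687, 804 and 761 counts against 34, 27 and 285 (log2 fold change 1.34, adjusted p = 0.0746, edgeR). The touch channel gene nompC of the bristle had 219, 140 and 184 counts in Poxn replicates 1 to 3, against 12, 33 and 90 in control replicates 1 to 3 (log2 fold change 0.38, adjusted p = 0.545, edgeR). TrpA1, the heat-sensing relative of pain, had at most 20 counts in any library and was not tested. The Piezo relative Pzl had at most 3 counts.

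The 4 genes listed for class IV multidendritic neurons, not all of them particular to this class, were all tested. At an adjusted p under 0.05 (edgeR) 1 was higher and 1 lower under the label Poxn, beside 4.95% of all tested genes that were lower. Gr28b, a gustatory receptor gene that class IV neurons use to sense light, was 2.10 higher on the log2 scale in the libraries labelled Poxn (3.84 ± 0.308 against 0.828 ± 0.241 CPM, adjusted p = 0.0333, edgeR). It kept an adjusted p under 0.05 with length offsets (log2 fold change 1.94, adjusted p = 0.0455, edgeR). The gene kn, whose transcription factor Knot sets class IV identity and is required for ppk expression in the larva, had 46, 74 and 45 counts against 2, 1 and 18 (log2 fold change 1.51, adjusted p = 0.110, edgeR). The homeobox gene ct, expressed in class III and class IV neurons, had 130, 138 and 139 counts against 44, 36 and 80 (log2 fold change −0.74, adjusted p = 0.311, edgeR). The gene ss, a transcription factor gene that shapes dendrites, was lower in the libraries labelled Poxn, with 16.7 ± 2.16 CPM against 73.2 ± 32.5 CPM (log2 fold change −2.13, adjusted p = 0.0300, edgeR). Its log2 fold change was −0.39 with total counts, where the libraries overlapped.

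Among genes for the excitability of nociceptors, such as potassium and calcium channel genes, 8 of 9 were matched and tested, and their median log2 fold change was −0.08. Past an adjusted p of 0.05 there were 0 genes higher under the label Poxn and 1 lower, the calcium-activated potassium channel gene SK (log2 fold change −1.61, adjusted p = 0.0429, edgeR; 0.04 with total counts). At an unadjusted p under 0.05 the numbers were 1 and 3 (edgeR). Of 10 pan-neuronal genes, all tested, 0 were higher and 1 was lower at an adjusted p under 0.05, the RNA-binding protein gene fne (log2 fold change −1.50, adjusted p = 0.0417, edgeR; 0.16 with total counts), while 1 and 3 had an unadjusted p under 0.05. The one past the unadjusted threshold in the direction of Poxn was nSyb, a synaptic vesicle fusion gene, with 1757, 2858 and 2112 counts in Poxn replicates 1 to 3 and 85, 127 and 744 in control replicates 1 to 3. It stood at 79.7 ± 15.9 CPM against 30.5 ± 8.95 CPM, without overlap, a change of 1.38 on the log2 scale (adjusted p = 0.0524, edgeR, and 0.00524 with DESeq2), close to the 1.43 of pain. With length offsets it was 0.85 (adjusted p = 0.211, edgeR). The median of the 10 was −0.21 with TMM factors, and it was 1.41 with total counts, close to the median of all genes under each.

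Of 5 genes listed for the structure of mechanosensory bristles 4 were tested, and 0 were higher under the label Poxn at an unadjusted p under 0.05 (edgeR). Whether these genes are particular to mechanosensory bristles or also serve chemosensory sensilla was not tested. The gene nompA, which encodes a matrix protein that joins the dendrite tip to the cuticle of the bristle, was lower under the label Poxn and met the criterion. It had 10, 3 and 5 counts in Poxn replicates 1 to 3 and 33, 140 and 379 in control replicates 1 to 3 (log2 fold change −6.44, adjusted p = 0.00172, edgeR). The ciliary transport gene rempA had a log2 fold change of −2.21 (adjusted p = 0.0530, edgeR) and nompB, of the same process, 0.28 (adjusted p = 0.634, edgeR).

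Within the pickpocket family, 27 further genes were listed, of which 24 were counted at least once and 11 tested. Their median log2 fold change was −2.38, and it was −0.58 with total counts. Under the label Poxn 4 were lower and met the criterion, ppk10, ppk23, ppk25 and ppk29, and 0 were higher (8 lower and 1 higher at an unadjusted p under 0.05, edgeR). With DESeq2 6 of these 11 were lower at the criterion and 0 higher. So was ppk7, which was too low for the edgeR filter, with 0, 0 and 0 counts against 3, 9 and 44 (adjusted p = 1.78e-06, DESeq2). DESeq2 called 734 of the 9751 genes it tested lower at this criterion. Each of ppk10, ppk23, ppk25 and ppk29 had at most 11 counts in any library labelled Poxn and at least 38 in every library labelled control. At an adjusted p under 0.05 ppk3 was lower as well (log2 fold change −2.38, adjusted p = 0.0395, edgeR; −0.66 with total counts). The pickpocket gene closest in its change to ppk and ppk26 was ppk17, chosen after its values were seen, with 182, 175 and 139 counts in Poxn replicates 1 to 3 and 1, 13 and 2 in control replicates 1 to 3. Its change of 2.75 on the log2 scale had an adjusted p of 0.0814 (edgeR). It was followed by ppk22, with 105, 151 and 300 counts against 2, 21 and 61 (log2 fold change 1.27, adjusted p = 0.213, edgeR). Among the tested pickpocket genes, only ppk26 met the criterion in the direction of Poxn with edgeR and TMM factors.

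A list of 7 genes of wing chemosensory neurons, which shares ppk23, ppk25 and ppk29 with the pickpocket family above, was also read. It was chosen with results from these libraries known and is therefore no independent evidence. For ppk23, ppk25 and ppk29 the paper also cites earlier reports of expression in the wing. All 7 were tested and had a negative log2 fold change, 4 were lower at the criterion and 6 at an adjusted p under 0.05 (edgeR), with a median log2 fold change of −6.47. Their summed level was between 6.01 and 7.96 CPM in the libraries labelled Poxn and between 154 and 190 CPM in those labelled control. Markers of other cells were also read. None of the tested genes for glia (5 tested), flight muscle (7), trachea (4) or hemocytes (4) passed an adjusted p under 0.05 in either direction, 1 hemocyte gene was lower at an unadjusted p under 0.05 (edgeR), and the 5 fat body genes were too low for the edgeR filter. With DESeq2 2 fat body genes were lower under the label Poxn at the criterion, both at few counts, beside 734 of the 9751 genes it tested. The yolk protein gene Yp1 had 2, 1 and 4 counts against 6, 7 and 5 (adjusted p = 0.00780, DESeq2), and the larval serum protein gene Lsp2 had 4, 6 and 5 against 2, 10 and 18 (adjusted p = 0.00653, DESeq2). The summed level of the glial genes was between 310 and 369 CPM in the libraries labelled Poxn and between 139 and 474 CPM in those labelled control, that of the flight muscle genes between 149 and 348 CPM and between 182 and 265 CPM, and that of the hemocyte genes between 15.0 and 25.7 CPM and between 24.4 and 68.3 CPM. The summed fat body genes lay between 0.536 and 1.03 CPM and between 2.14 and 3.80 CPM. For the tracheal genes it was between 863 and 986 CPM and between 14.1 and 2590 CPM. Their part in the values of the channel genes was not tested.

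**Figure D5:**
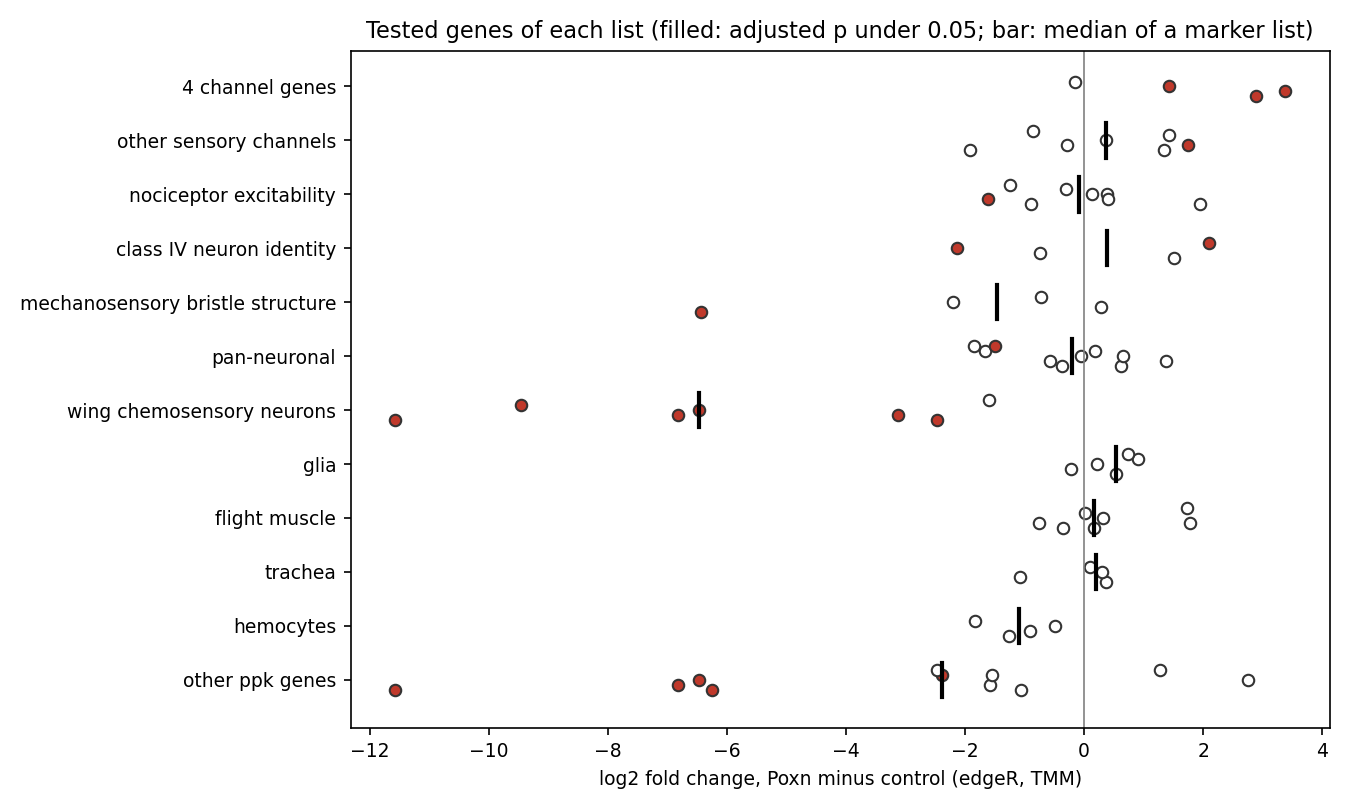
Log2 fold change of Poxn over control for the 4 channel genes and for the tested genes of each marker list, with filled points at an adjusted p under 0.05 and a bar at each marker list's median. The genes ppk26, ppk and pain stand on the right of 0. The median of the chemosensory neuron list and 4 pickpocket genes stand far to the left, and fru of that list stands at −1.60. The genes ppk23, ppk25 and ppk29 are in both lists and appear under each.

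The genes whose levels most resembled each channel gene over the 6 libraries were sought among genes within 2 log2 units of its mean level, by Pearson's r of log2 CPM. For ppk these were CG1513, Tsc1 and CG3036, with r between 0.996 and 0.999. For ppk26 they were mtm, Pcyt1 and Gld, with r between 0.995 and 0.998, and for pain Vha100-1, ZnT63C and Pak, with r between 0.997 and 0.9996. The 6 points share their libraries, and a difference between the labels alone gives a high r. Of the genes in range, 282 of 5615 exceeded 0.95 for ppk, 194 of 4504 for ppk26 and 144 of 4259 for pain. For Piezo 8 of 5026 genes did, led by Hexim with r = 0.971. Of the genes named, Gld, which encodes glucose dehydrogenase, had a change nearest to that of ppk26 (log2 fold change 3.80, adjusted p = 0.0144, edgeR), with 3448, 5807 and 3984 counts in Poxn replicates 1 to 3, against 26, 28 and 356 in control replicates 1 to 3. Among the 4 channel genes, r was 0.983 for ppk and pain, 0.910 for ppk and ppk26, 0.898 for ppk26 and pain, and between −0.449 and −0.123 for Piezo with the others.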

How the data were processed

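The authors deposited raw counts per gene for each of the 6 libraries, with no normalization. Their notes and methods name Trim Galore 0.4.0 for trimming, STAR 2.4.2a for alignment to FlyBase r6.09 and HTSeq for counting; its mode and strand setting are not given in the sources used here. Lines that name no gene were left out. Reads assigned to no feature, which need not lie outside genes, made up 47.9% to 58.6% of a library. A table of the authors' own comparison with 6 per-library columns was not used. The Ensembl annotation of BDGP6.54, also release 6, gave symbols and transcript lengths for 17229 of 17476 genes.

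Genotypes were compared with edgeR 4.0.16 in R 4.3.3: quasi-likelihood test, TMM factors, filterByExpr (minimum count 10), prior count 0.125, genotype as the only term and Benjamini-Hochberg adjustment over 8973 genes. Standard errors were derived from the log2 fold change and F. The criterion, 4-fold and adjusted p 0.01, follows the study. Alternatives were RLE factors, total counts, TMM without the 50 most abundant genes, length offsets (loess, span 0.5), DESeq2 1.42.0, limma 3.58.1 voom with quality weights, no filter, 10 counts in 3 libraries, a prior count of 2, adjusted p 0.05 alone, a replicate block with and without length offsets, and omission of single libraries. The pan-neuronal sum was an alternative chosen after seeing the data. The code was tested on simulated counts with the same dispersion for every gene and both genotypes. The spread in the data was unequal, so that test checks the code and not the error rates here.

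The 4 genes and all lists were chosen with earlier results of these data known. Genes named are these 4, list genes and further ppk genes past an adjusted p of 0.05, other list genes reaching 10 counts where they describe a list, and the 3 genes most like each channel gene; others are said to be chosen after their values were seen. TrpA1 and Pzl are given for their low counts, Yp1 and Lsp2 since DESeq2 called them, and Gasp, Act88F and NaCP60E beside the values they touch. The symbols para and btl were not matched.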

Additional observations from a re-analysis of the deposited data

How the results depend on the processing

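The log2 fold changes of ppk, ppk26 and pain were positive in all 17 alternatives, and those of Piezo were negative in 12. Among the 11 alternatives that kept all libraries, ppk26 passed the criterion in 8 and ppk in 4, and pain and Piezo in 0. For ppk26 the call was lost with RLE factors (3.26), length offsets (2.86) and the replicate block with length offsets (2.92). For ppk it was gained with total counts (4.21), DESeq2 (2.82), no filter (3.04) and the replicate block (3.01), and at an adjusted p under 0.05 alone both ppk (2.89) and pain (1.43) were called. Piezo changed sign with total counts (1.30), length offsets (0.29), no filter (0.0014) and the replicate block with length offsets (0.31). Relative to the pan-neuronal sum, a value with no test over all genes, the log2 differences were 3.68 for ppk26 and 0.063 for Piezo; this alternative was chosen after seeing the data. On leaving out 1 library the log2 fold changes ran from 3.08 to 3.79 for ppk26, from 2.60 to 3.19 for ppk, from 1.28 to 1.64 for pain and from −0.32 to 0.15 for Piezo.

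Of all tested genes, the number higher in the libraries labelled Poxn was 5, and it was 3 with RLE factors, 85 with total counts, 74 with DESeq2, 14 with limma voom, 13 without a filter, 14 with the replicate block, 8 with the block and length offsets, and 241 at an adjusted p under 0.05 alone. The number higher in those labelled control was 54, and it was 734 with DESeq2, 218 with limma voom, 90 without a filter, 104 with the replicate block and 444 at an adjusted p under 0.05 alone. On leaving out 1 library these numbers ran from 0 to 24 and from 3 to 222. The causes of these changes were not tested. Deviations of same-numbered libraries correlated at 0.119, 0.131 and −0.0884, and those of libraries with unlike numbers between −0.233 and 0.121. Deviations within 3 libraries depend on each other, so these values cannot decide whether replicate numbers pair the samples. With the replicate block the log2 fold changes were 3.46 for ppk26 (adjusted p = 0.00177), 3.01 for ppk (adjusted p = 0.00335), 1.44 for pain (adjusted p = 0.0678) and −0.12 for Piezo (adjusted p = 0.905, all edgeR). Per kilobase and with total counts, the mean levels in the libraries labelled Poxn were 57.8 for ppk26, 35.8 for pain, 17.2 for ppk and 0.836 for Piezo, and that of pain in control wings was 4.90. A small effective library size limits the control values, above all in control replicate 1, where ppk had 4 counts. That library held 12938209 counts on genes, 62.4% of them on the 50 most abundant genes. Genes with transcripts under 600 nt took 30.6% of its counts, against 5.68% to 7.03% in the libraries labelled Poxn.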
